A study of Equus caballus with 4 samples.

Results

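The transcripts described here had a probe marked as well above background in the skin of every horse and in no sarcoid, by a detection flag of the array scanner software. The probes were chosen by this flag. A less strict flag, described below, marked most of these probes in at least 1 sarcoid too. A probe belonged to the set when the software marked it as well above background in the skin channel on all 4 arrays and in the sarcoid channel on none, in every spot of the probe, and when it carried a RefSeq or GenBank accession. Of 10001 probes with such an accession, among 43603 probes in all, 94 had this pattern (0.94%), and 6 probes of 3 genes were left out by the rule. The remaining 88 probes belong to 54 targets of 4526 with such an accession (a target is a gene, or an accession where no symbol was found), of which 22 have a gene symbol and 32 are known by an accession alone. The flags of both tissues chose these probes, so their difference between skin and sarcoid is a description, and no test of it is used as evidence. The label holds for single probes more than for genes. For 26 of the 54 targets no probe was well above background in any sarcoid. For the other 28 another probe of the same target was, in at least 1 sarcoid. Of the 26, 20 have a single probe, for which the rule fixed the outcome. Among the 34 targets with 2 or more probes, 6 had no probe well above background in any sarcoid.

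The samples came from 4 horses, each of which gave 1 sarcoid and 1 piece of skin taken away from the tumour. The RNA came from tissue and not from sorted cells. The sarcoid RNA was labelled with Cy3 and the skin RNA of the same horse with Cy5, and both were hybridised to 1 two-colour array per horse. Skin carried Cy5 on every array, so any preference of a probe for 1 dye is part of each difference below. The descriptions of 3 samples name a cultured cell type, against their other labels, and the tissue and horse fields were used. Breed, age, treatment and tumour type of the horses are not given in the sources used here.

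A sarcoid is a locally invasive tumour of fibroblasts in the skin of horses. Skin consists of an epidermis of keratinocytes over a dermis of fibroblasts, vessels and nerve fibres, and horse skin is rich in hair follicles, sweat glands and sebaceous glands. Epithelial cells of the epidermis and glands hold enzymes of steroid and xenobiotic metabolism, receptors for growth factors made by fibroblasts, and a store of interleukin 1 alpha. In RNA from a whole tissue, fewer cells of a type and less RNA per cell cannot be told apart.

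The skin-only pattern was more frequent than its mirror image. The mirror pattern, in which all 4 sarcoids were well above background and no skin sample was, was found for 9 of the 10001 probes (0.09%). Over all 43603 probes the numbers were 473 with the skin-only pattern (1.08%) and 23 with the mirror pattern (0.0527%). Of 8037 accession probes well above background in skin on 4 arrays, 7419 (92.3%) were so in the sarcoid on 4 arrays too, and 89, 133 and 302 were so on 1, 2 and 3 arrays. Among 7530 probes well above background in the sarcoid on 4 arrays, 12, 19 and 78 were so in skin on 1, 2 and 3 arrays.

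**Figure D1:**
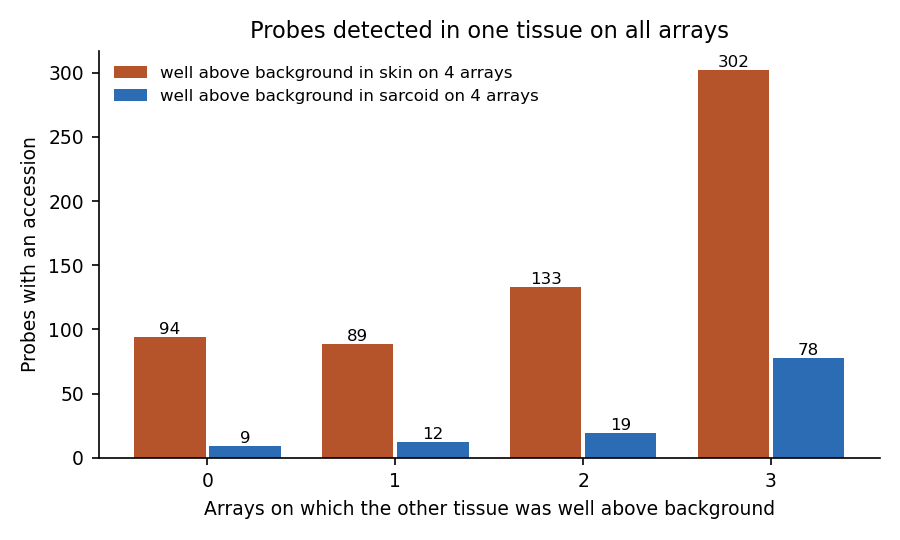
Number of accession probes (y axis) that were well above background in skin on all 4 arrays (brown bars) or in sarcoid on all 4 arrays (blue bars), by the number of arrays on which the other tissue was well above background (x axis, 0 to 3). The 94 skin-only probes and the 9 sarcoid-only probes stand at 0, and the 7419 and 7412 probes detected in the other tissue on all 4 arrays are not drawn.

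The channels were not equally bright. The share of spots well above background lay between 74.8% and 80.7% in the skin channel and between 67.2% and 78.4% in the sarcoid channel, and the median background-subtracted signal lay between 106 and 173 in skin and between 43.8 and 118 in sarcoid. In horse 1 the sarcoid channel had the larger share (78.4% against 74.8%), and in the other horses the skin channel had. Without horse 1 the pattern on the remaining arrays was met by 174 probes, and without horses 2, 3 and 4 by 107, 100 and 115. The part of channel brightness in the pattern was not tested.

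The flag has a sharp edge at low signal. The lowest signal marked as well above background was between 14.2 and 21.6 units in the skin channel and between 12.8 and 15.0 units in the sarcoid channel, in the scanner's background-subtracted units, which are linear and not adjusted for the dyes. The skin signals of the 88 probes ran from 16.2 to 1438 units and their sarcoid signals from -7.66 to 14.9 units. In 33 of the 88 probes the lowest skin signal was under 30 units, and in 24 it was 100 or more. Just inside the edge stood CALCA at 16.7 units, CYP27B1 at 17.5 and CHRM5 at 18.2 in their lowest skin sample. Just outside stood probes of BDNF, HSD11B2 and IL1RN that were marked in a single sarcoid, at 13.6, 13.8 and 14.7 units. These values are means over the spots of a probe, and a mark in any spot counts, so the mean of a marked probe can lie below the limit, as for BDNF. On a less strict flag of the same software, which asks only for a positive signal that differs from background, 13 of the 88 probes kept the pattern, and among the named genes only IL1A, CALCA and NPY5R kept it. Skin that meets the stricter flag meets this one too, so the other probes lost the pattern through the sarcoid channel. Most members thus had a positive signal that differed from background in at least 1 sarcoid.

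A fold is called a lower bound (at least), because no sarcoid array marked the probe as well above background. It sets the mean normalised log2 level of the skin samples against the mean of each array's detection floor, or of the probe's own sarcoid level where that was higher. The floor is the lowest normalised sarcoid level of any probe marked on that array, and unmarked probes can lie above it. In horse 4 the floor was 6.19, and the sarcoid level of CX604888 was 6.92. For CYP2A13 the measured level was used throughout, so its fold on these normalised levels is the measured ratio. The same held for the probe of highest skin level of MARVELD3, FGFR2, MLN, CRISP2, C5H1orf105, CYP2E1 and TPM3. It also held for some unnamed targets, DN510735 and DN510261 among them. The bound is therefore nominal and not a strict limit. The normalisation adds 50 units to every signal, which shrinks the difference of a dim probe, so the bound on Agilent's processed signals, which have no such addition, is given too. Over the 54 targets the bound had a median of 1.49-fold (1.03 to 7.69), and 3.46-fold (1.17 to 35.2) on the processed signals. It was at least 2-fold for 14 targets and at least 4-fold for 5. On median centring of the channels, an alternative that evens out their brightness, the bound went below 1 for CHRM5, CYP27B1, CYP2E1, IL1RN, KLHDC7A, SELE and TPM3. As a mean over horses it stayed above 1 for them on the processed signals, without background correction and with outlier spots left out after the background fit. In the lowest horse on the processed signals it was 0.887 for CHRM5, 0.912 for TPM3, 0.961 for CYP27B1 and 0.982 for KLHDC7A. There it was 1.09 for CYP2E1, 1.28 for SELE and 1.32 for the IL1RN probe of highest skin level, but 0.796 and 0.938 on other IL1RN member probes.

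**Figure D2:**
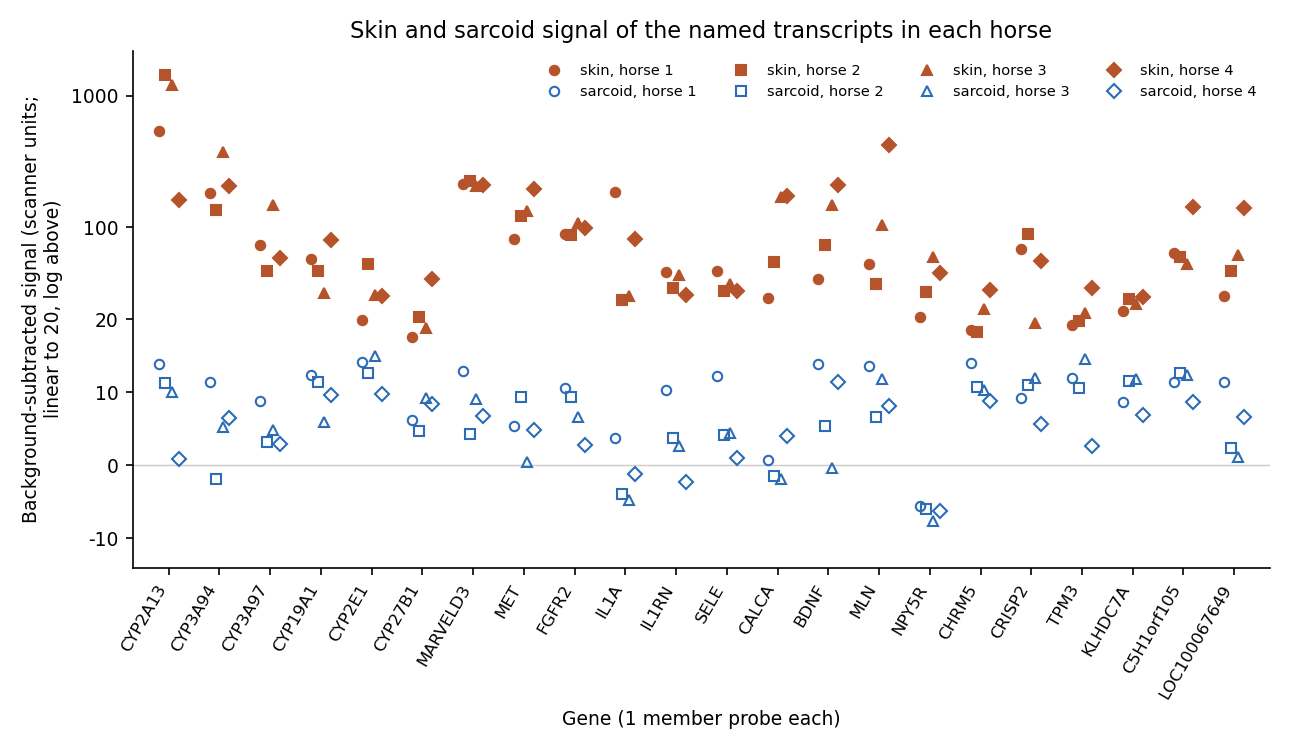
Background-subtracted signal in scanner units (y axis, linear up to 20 and logarithmic above) of 1 probe for each of the 22 named genes (x axis), in the skin (filled brown) and the sarcoid (open blue) of horses 1 to 4, each horse with its own symbol. All skin points lie above all sarcoid points of the same gene, and CYP2A13, MLN and IL1A show wide spreads between the skin samples.

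Of the 22 named genes 6 are cytochromes P450. These haem enzymes oxidise steroids, vitamins, drugs and other foreign compounds. CYP2A13, a P450 of foreign compounds, had skin signals of 542, 1438, 1213 and 160.5 units in horses 1 to 4 and sarcoid signals of 13.8, 11.2, 10.1 and 0.903. The tissues were far apart in every horse, and the skin of horse 4 was the dimmest. Its normalised log2 skin level was 9.27 ± 1.22 (SD, n = 4), which puts skin at least 7.69-fold above sarcoid, or at least 35.2-fold on the processed signals. On the log2 scale the bound was 2.94, with 3.56 without horse 4 and 1.48 where the background model was fitted to all spots and outlier spots were left out afterwards. That order lowered the fold by more than 1.5 times for 10 of the 54 targets, with smaller changes in the rest.

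CYP3A94 and CYP3A97 belong to the horse CYP3A cluster, a family of drug-metabolising enzymes whose members can share probe signal. CYP3A94 gave 182, 135, 371 and 207 units in skin and 11.4, -1.84, 5.21 and 6.48 in sarcoid, at least 3.10-fold (10.7-fold on processed signals, and 1.77-fold with outlier spots left out after the background fit). CYP3A97 gave 72.9, 46.2, 148 and 57.9 units in skin and 8.74, 3.22, 4.80 and 2.91 in sarcoid, at least 1.74-fold (4.11-fold). Horse 3 was highest and horse 2 lowest in skin for both. In the RefSeq gene order 2 protein-coding genes lie between them, and each had 1 probe on the array.

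CYP19A1, the aromatase that makes oestrogens from androgens, was a member through 3 of its 9 probes. One of these probes had 57.6, 46.4, 31.6 and 79.8 units in skin and 12.4, 11.4, 5.99 and 9.68 in sarcoid. Another CYP19A1 probe was well above background in all 4 sarcoids, at 169, 117, 112 and 55.6 units against 763, 699, 755 and 1664 in skin. The gene was therefore measured in sarcoid, at a lower level than in skin on all 9 probes, with log2 ratios of sarcoid over skin from -1.99 to -0.36.

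CYP2E1, which oxidises ethanol and small solvents, and CYP27B1, which makes the active form of vitamin D, lay near the edge. CYP2E1 had 19.9, 52.5, 30.6 and 30.2 units in skin and 14.2, 12.6, 14.9 and 9.70 in sarcoid. CYP27B1 had 17.5, 20.7, 18.8 and 40.6 units in skin and 6.26, 4.64, 9.21 and 8.44 in sarcoid. Each was a member through 1 of 5 probes, and for each a further probe was well above background in at least 1 sarcoid. The other 4 CYP2E1 probes had log2 ratios of sarcoid over skin from -0.61 to -0.0021. The other 4 CYP27B1 probes had ratios from -0.17 to 0.049, 3 of them below 0. The CYP27B1 probe at 0.049 was well above background in no skin sample and in 1 sarcoid, that of horse 3, at 30.5 units. Across the 15 P450 genes with a named probe, a set chosen after the members were seen, 12 had a probe well above background in skin on 4 arrays and 5 had one in sarcoid on 4 arrays. Over all 1031 named genes the shares were 75.1% in skin and 66.4% in sarcoid. The 15 P450 genes include the 6 members, whose member probes the rule required in skin on 4 arrays and in no sarcoid. Their counts were thus partly fixed in advance, and nothing is read from the comparison.

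MARVELD3, MET and FGFR2, set together here after the members were seen, encode a junction protein and receptors. MARVELD3, a membrane protein of tight junctions, had an even skin signal of 212, 223, 206 and 208 units, with 12.95, 4.24, 9.02 and 6.78 in sarcoid. Its normalised log2 skin level was 7.91 ± 0.17 (SD, n = 4), and skin was at least 2.99-fold higher (11.4-fold on processed signals, and 1.81-fold with outlier spots left out after the background fit). All 5 MARVELD3 probes had log2 ratios between -1.83 and -1.44, and the 2 probes outside the rule missed it through 1 sarcoid each, that of horse 1, at 17.2 and 22.8 units.

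MET is the receptor for hepatocyte growth factor and FGFR2 a receptor for fibroblast growth factors, whose epithelial splice form binds FGF7. The MET member probe had 81.0, 121, 132 and 194 units in skin and 5.43, 9.37, 0.418 and 4.82 in sarcoid, at least 2.12-fold (7.11-fold). Another MET probe was well above background in all 4 sarcoids, at 117, 552, 48.2 and 1855 units against 4099, 4859, 6149 and 9145 in skin. By that probe the sarcoids differed widely among themselves, and horse 4 stood highest.

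FGFR2 was a member through 2 of its 12 probes, the first with 89.0, 87.2, 108 and 98.8 units in skin and 10.6, 9.39, 6.63 and 2.72 in sarcoid, at least 1.93-fold (6.06-fold). The other 10 FGFR2 probes were well above background in skin on 4 arrays, and 3 of them in all 4 sarcoids. Of these, 1 had 358, 395, 2036 and 84.2 units in the sarcoids of horses 1 to 4 and 4133, 5294, 6079 and 10897 in skin, with the sarcoid of horse 3 well above the others. Which splice form each FGFR2 probe reads was not analysed here. All FGFR2 and MET probes had log2 ratios below 0, from -2.98 to -0.40 and from -3.29 to -1.08.

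A cytokine and its antagonist were both among the members. IL1A encodes a cytokine that keratinocytes store and release on injury, and IL1RN encodes the antagonist that blocks its receptor. IL1A had 184, 28.2, 29.9 and 81.1 units in skin and 3.75, -3.86, -4.78 and -1.23 in sarcoid, at least 1.74-fold (3.97-fold). None of its 3 probes was well above background in any sarcoid. Horse 1 gave the brightest skin on every IL1A probe, at 183, 184 and 143 units, against 12.8, 28.2 and 8.76 in horse 2.

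IL1RN was a member through 5 of its 10 probes, with skin signals between 19.0 and 45.5 units on them. One of these probes had 45.5, 34.7, 43.4 and 30.7 units in skin and 10.3, 3.80, 2.59 and -2.31 in sarcoid. A single other IL1RN probe was well above background in all 4 sarcoids, at 237, 93.5, 63.9 and 279 units against 1275, 1046, 1065 and 2553 in skin, with a log2 ratio of -2.20. By that probe the antagonist was measured in both tissues, with lower values in each sarcoid than in the skin of the same horse. In the RefSeq gene order 9 protein-coding genes lie between IL1A and IL1RN.

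CALCA, BDNF, MLN, NPY5R and CHRM5, also set together after the members were seen, encode peptides, a neurotrophin and receptors of nerve transmitters. CALCA yields calcitonin or, in sensory neurons, the calcitonin gene-related peptide. One of its 2 member probes had 28.8, 54.7, 169.9 and 174 units in skin and 0.727, -1.44, -1.82 and 3.98 in sarcoid, at least 1.83-fold (4.37-fold). Horses 3 and 4 were high and horses 1 and 2 low. Of the other 4 CALCA probes 2 were in no sarcoid above background and 2 were so in 1 sarcoid.

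BDNF encodes a growth factor of neurons. Its member probe had 40.3, 72.8, 147 and 209 units in skin and 13.9, 5.45, -0.407 and 11.4 in sarcoid, at least 1.83-fold (4.58-fold). As for CALCA, the skin of horses 3 and 4 was brighter than that of horses 1 and 2. All 5 BDNF probes had log2 ratios between -0.93 and -0.65, and the 4 probes outside the rule were well above background in 1 or 2 sarcoids.

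MLN encodes motilin, a peptide hormone of the gut. Its 2 member probes had 52.5, 37.2, 104 and 424 units and 49.0, 31.8, 86.3 and 356 units in skin, and no sarcoid signal over 13.6. Horse 4 was far above the others, and it was highest on all 5 MLN probes that were well above background in skin on every array. The normalised log2 skin level was 7.28 ± 0.87 (SD, n = 4) on the first of these probes, and the bound was 1.87-fold (5.03-fold).

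NPY5R, a receptor for neuropeptide Y, had 20.8, 32.3, 59.8 and 45.1 units in skin and -5.60, -6.02, -7.66 and -6.28 in sarcoid, at least 1.37-fold (1.96-fold). Its sarcoid signal was below the local background in every horse, and it was 1 of 4 member probes for which this held. CHRM5, a muscarinic acetylcholine receptor, had 18.5, 18.2, 23.9 and 33.4 units in skin and 14.0, 10.7, 10.3 and 8.82 in sarcoid. Its tissues differed by few units in horses 1 and 2. On the normalised log2 scale horse 3 had 6.22 in skin and 6.16 in sarcoid. In horse 4 the sarcoid (6.50) stood above the skin (6.47) on that scale. The CHRM5 bound was 1.04-fold (1.18-fold). Its other 2 probes were well above background in no sarcoid and in at most 2 skin samples.

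SELE encodes E-selectin, which activated endothelium uses to catch leukocytes. Its member probe had 46.2, 32.7, 36.9 and 32.9 units in skin and 12.3, 4.16, 4.36 and 0.937 in sarcoid, at least 1.29-fold (2.14-fold). The other 4 SELE probes had log2 ratios between -0.36 and -0.18, and 3 of them were well above background in 2 or 3 sarcoids. E-selectin signal was therefore present in some sarcoids on other probes.

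The rest of the named genes share no known role. CRISP2, a cysteine-rich secretory protein known from the testis, had 68.6, 89.2, 19.5 and 55.7 units in skin and 9.20, 11.0, 12.02 and 5.65 in sarcoid, at least 1.41-fold (3.14-fold). C5H1orf105 had 63.3, 59.6, 52.9 and 142 units in skin and between 8.72 and 12.7 in sarcoid, at least 1.56-fold (3.79-fold). LOC100067649 had 30.2, 46.7, 61.4 and 139.5 units in skin, at least 1.47-fold (3.87-fold), and another probe of it was well above background in all 4 sarcoids. Horse 4 was highest in skin for C5H1orf105 and LOC100067649, and horse 3 lowest for CRISP2.

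KLHDC7A and TPM3, a tropomyosin of the actin cytoskeleton, were near the edge. KLHDC7A had 22.9, 28.3, 26.3 and 29.7 units in skin and between 6.90 and 11.8 in sarcoid. TPM3 had 19.2, 19.8, 22.2 and 34.6 units in skin and between 2.69 and 14.6 in sarcoid, and its other probe was well above background in 2 sarcoids.

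Of the 32 targets known by an accession alone, 24 have a GenBank and 8 a RefSeq accession that the gene table does not list. DN510820 gave 258, 568, 778 and 1074 units in skin and -0.791, -3.63, -4.95 and -3.55 in sarcoid. All 5 of its probes were members, with bounds from 5.81-fold to 7.02-fold (31.4-fold to 33.7-fold on processed signals). Every one of them was dimmest in horse 1 and brightest in horse 4 in skin.

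CX604888 gave 451, 875, 626 and 808 units in skin and -1.82, -1.03, 0.445 and 8.03 in sarcoid, with bounds of 5.18-fold to 7.65-fold over 4 member probes. The other CX604888 probe missed the rule through the sarcoid of horse 2, at 38.6 units. CX603403 gave 275, 846, 537 and 403 units in skin and -1.36, 11.1, -0.425 and -0.201 in sarcoid, at least 5.64-fold. XM_005600243 gave 159, 609, 670.0 and 295 units in skin and 2.94, 12.3, 6.87 and 6.44 in sarcoid, at least 4.49-fold, with horses 2 and 3 high. For CX603403, CX604888, DN510820 and XM_005600243 the fold was 2.59, 3.22, 3.04 and 2.03 with outlier spots left out after the background fit. DN510261 was the other target with all 5 probes in the set. The unnamed targets had a median bound of 1.49-fold (1.03 to 7.65) and the named ones 1.52-fold (1.04 to 7.69).

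All probes of a target were next set side by side, since the rule looked at each alone. The 54 targets have 190 probes, of which 102 were not members. Of those 102, 65 were well above background in skin on 4 arrays, 10 in sarcoid on 4 arrays, 66 in 1 to 3 sarcoids and 26 in none. The log2 ratio of sarcoid over skin was below 0 for 98 of the 102, between -3.29 and 0.27. These probes read the same RNA on the same arrays as the members, so they are no separate evidence. In 22 targets every probe was a member, 20 of them with a single probe. Of the 26 targets with no probe above background in any sarcoid, 6 have 2 or more probes, with IL1A and CHRM5 the named ones. The others have a single probe, so the rule fixed the outcome for them. The named ones of these are CRISP2, CYP2A13, CYP3A94, CYP3A97, KLHDC7A, NPY5R and C5H1orf105. In 8 targets a further probe was well above background in all 4 sarcoids, the named ones being CYP19A1, FGFR2, IL1RN, MET and LOC100067649.

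**Figure D3:**
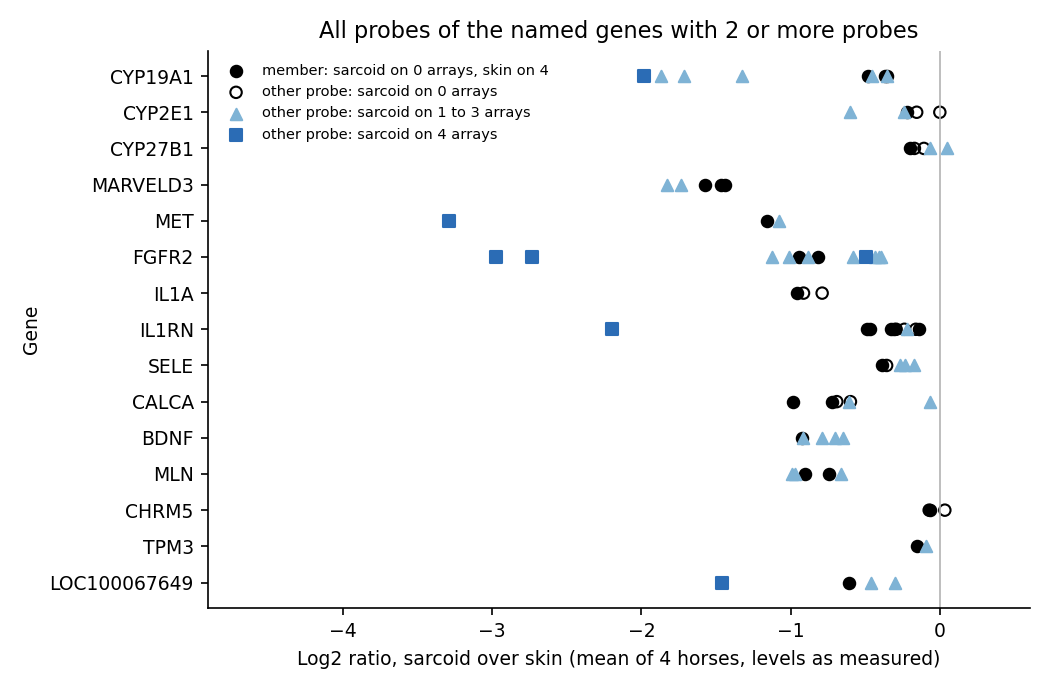
Log2 ratio of sarcoid over skin (x axis, mean of 4 horses) for every probe of the 15 named genes with 2 or more probes (y axis). Black dots are members, open circles are probes in no sarcoid, light triangles are probes in 1 to 3 sarcoids and blue squares are probes in all 4 sarcoids. The squares of MET, FGFR2, IL1RN, CYP19A1 and LOC100067649 include ratios further below 0 than their member probes.

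The rule did not rank the skin samples, which were compared with one another by their normalised levels. The normalised skin level varied between horses with a median SD of 0.22 on the log2 scale over the 54 targets, against 0.23 over 7930 other accession probes well above background in skin on 4 arrays. Horse 4 was the highest of the 4 skin samples for 21 of the 54 targets (38.9%) and for 35.4% of the other probes, and horse 1 the lowest for 20 (37.0%) against 34.1%. Horse 3 was the lowest for 14 targets (25.9%) against 15.3% of the other probes, and the highest for 11 (20.4%) against 29.9%. Horse 2 was the highest for 11 (20.4%) against 13.7%. These differences in share were not tested.

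Some single genes varied more than the median target and others less. The SD over horses was 1.22 for CYP2A13, 0.87 for MLN, 0.71 for IL1A, 0.50 for BDNF and 0.55 for CALCA. It was 0.12 for FGFR2 and 0.17 for MARVELD3. The range over the 4 skin samples was 2.65 on the log2 scale for CYP2A13, 2.02 for MLN, 1.55 for IL1A, 1.07 for BDNF and 1.04 for CALCA, and it was 0.25 for FGFR2 and 0.39 for MARVELD3. Probes of 1 target did not always order the horses alike. Of 29 targets with 2 or more probes well above background in skin on 4 arrays, 18 had the same horse highest on every probe and 13 the same horse lowest. The named genes with a shared highest horse were BDNF, CALCA, CYP2E1, MARVELD3, MET, MLN, SELE and TPM3. Each horse gave 1 skin sample, so a horse, its site of sampling and its array cannot be told apart.

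**Figure D4:**
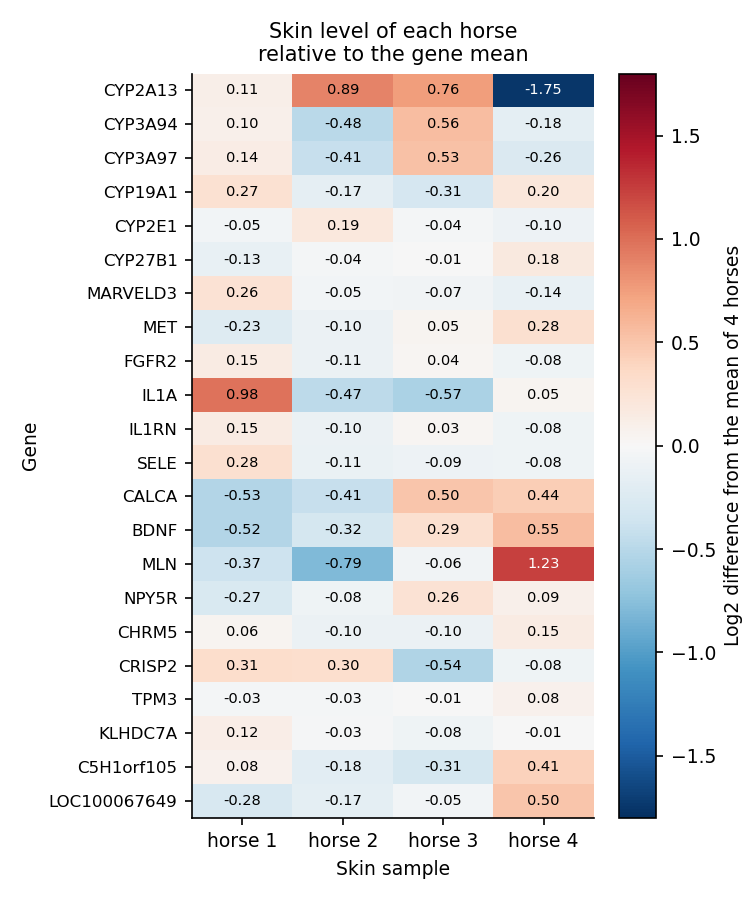
Normalised log2 skin level of each horse (columns) minus the mean of the 4 horses, for 1 member probe of each of the 22 named genes (rows). Red is above and blue below the mean. CYP2A13 is lowest in horse 4, MLN is highest in horse 4 and IL1A is highest in horse 1.

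The named members were compared with 16 lists of cell type and pathway genes. Of the 22 symbols 10 are in a list and 12 in none, and the members are 22 of the 1031 named genes on the array (2.13%). The list of steroid, retinoid and xenobiotic enzymes holds CYP19A1, CYP2E1, CYP3A94 and CYP3A97, 4 of its 14 genes on the array. The list of epidermal growth factors and receptors holds FGFR2 and MET, 2 of 13 on the array. The leukocyte list, which mixes leukocyte markers with cytokines and chemokines, holds IL1A and IL1RN, 2 of 16. The nerve list holds CALCA, 1 of 6, and the list of endothelial and blood genes SELE, 1 of 7. None of the members is in the 6 lists of keratinocyte, cornified, antimicrobial, sweat gland, sebaceous and hair follicle genes, of which 15 genes were on the array, too few to read an absence at that share.

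Those 15 epithelial and gland genes were still measured in sarcoid, at lower levels. In limma 11 of them were lower at a Benjamini-Hochberg adjusted p under 0.05 and 0 higher, with a median log2 ratio of -3.53. Their summed normalised signal lay between 363847 and 558221 in skin and between 8723 and 14348 in sarcoid. Most of that skin sum came from the 7 sweat gland genes. Alone these summed to between 280979 and 418747 in skin and between 5919 and 7601 in sarcoid. Each of the 15 genes was well above background in at least 1 sarcoid. They include KRT15 (a keratin of basal keratinocytes) at -5.12 and LATH (the sweat protein latherin) at -6.33, while none of the cornified or hair follicle genes was on the array under a symbol. Of the 12 fibroblast and matrix genes tested 10 were higher and 2 lower, with a median of 1.95. The lists with members were counted without them, since the rule chose the members on the same contrast. Of the 4 other nerve genes tested 2 were lower, and of the 6 other endothelial and blood genes 1 was higher and 2 lower. Without CYP19A1, CYP2E1, CYP3A94 and CYP3A97, 4 of the 9 steroid, retinoid and xenobiotic enzymes were lower. Without FGFR2 and MET, 2 of the 11 epidermal growth factors and receptors were lower. Without IL1A and IL1RN, 1 of the 14 genes of the list of leukocyte markers, cytokines and chemokines was higher and 1 lower. Of the 8 melanocyte genes 2 were lower, of the 6 muscle genes 1 was lower, and of the 4 genes that every cell expresses 0 were called. The melanocyte, muscle and fibroblast lists still hold TYRP1, MB and HAPLN1, which had the skin-only pattern and were left out of the members by name. The part of these cell types in the skin-only pattern was not tested.

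Over all 19607 targets limma called 9.9% lower and 5.83% higher in the sarcoid. Higher calls made up 37.1% of all calls, 48.2% on the processed signals and 18.6% on median centring. Of the 54 targets 31 were called lower and 0 higher, by the probe of highest intensity per target, which was a member probe for 28 of them. The rule used the same contrast, so nothing is read from this count. With the background model fitted to all spots and outlier spots left out afterwards, 0 of the 54 were called, 147 and 93 of all targets were lower and higher, 3 of the 15 epithelial genes were lower, and 3 of the 12 fibroblast genes were higher. Without horses 1, 2, 3 and 4 in turn, 11, 13, 17 and 22 of the 54 were called lower.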

How the data were processed

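Agilent Feature Extraction 11.5.1.1 made the 4 deposited scanner files, per the submitters' processing notes. Per the file headers, the deposited intensity columns are linear: the median signal, the signal less background, and a processed signal that is also scaled for dye. The other deposited columns used are flags of 0 or 1. RNA (100 ng) was amplified and labelled, per the labels' protocols. The authors' value table of log ratios was not used.

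Spots marked as non-uniform or population outliers were left out, the background was corrected with normexp (offset 50), and arrays were normalised by loess and Aquantile (limma 3.58.1, R 4.3.3). Outlier spots were removed before the background fit. That order was taken from an earlier analysis of these data, where it had been chosen with counts of calls in view. The reverse order yields far fewer calls. Log2 ratios of targets well above background on at least 3 arrays in either channel were tested two-sided by limma (lmFit, eBayes, Benjamini-Hochberg adjustment) for a mean other than 0, a step also tested on simulated data. The pairing by horse is inside each ratio. The 4 arrays are the replicates, and their number limits the precision.

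Names came from the horse RefSeq gene table (assembly TB-T2T), which matched 2332 of 3437 probes with a RefSeq accession (67.8%). Coordinates are left out because the build of the array differs from that of the table. All 22 members with a symbol, the 4 unnamed ones of highest skin level, and 3 named probes on each side of the edge are described. The members and lists were chosen with earlier results of these data known. Alternatives covered the flag, the number of arrays, background correction, normalisation, filter, model and each horse left out.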

Additional observations from a re-analysis of the deposited data

Results flagged for a closer look

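The skin level of SELE stood apart in horse 1. Its normalised log2 level was 6.83 there and between 6.43 and 6.46 in the other 3 horses, and the gap was 0.918 of the whole range, above Dixon's critical value for 4 samples. It was the only 1 of 26 skin profiles to pass this limit, which chance passes in about 1 of 20.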

How the results depend on the processing

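The number of member probes moved with the definition. It was 28 on the flag for a positive and significant signal, with 2 of the members in a list, 134 with skin on at least 3 arrays and 177 with sarcoid on at most 1 array. With each horse left out it ran from 100 to 174, and the number of members in lists from 10 to 15. The median bound over targets, 0.58 on the log2 scale, was 1.78 on Agilent's processed signals, 0.33 with outlier spots left out after the background fit and 0.26 on median centring, and between 0.54 and 0.61 with each horse left out. The median SD between horses was 0.54 on the processed signals and between 0.16 and 0.22 with each horse left out. On median centring the log2 bound was -0.33 for CHRM5, -0.24 for CYP27B1, -0.14 for CYP2E1, -3.72e-05 for IL1RN, -0.18 for KLHDC7A, -0.066 for SELE and -0.24 for TPM3, and no fold is given there. Without background correction and with each horse left out, the bounds of all 22 named genes stayed above 0 and moved by less than their spread between horses. The processed signals moved 21 of the 22 bounds by more than that spread, and outlier spots left out after the fit moved 10. Of all targets, 147 were lower and 93 higher with outlier spots left out after the fit, 1887 were higher on the processed signals and 614 on median centring, and higher calls were 37.1% of calls here, 48.2% on the processed signals and 18.6% on median centring. The causes were not tested. The calls ran from 1055 to 1400 lower and from 375 to 796 higher with each horse left out. With the channels modelled separately and no replicate block they were 1793 and 933. No paired analysis was possible beyond the ratio itself because both tissues of a horse share an array.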
